A study of Mus musculus with 22 samples.

Results

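Amino acid uptake and the first step of branched-chain amino acid use were followed in mouse CD8+ T cells through 9 genes, matched by symbol in the authors' gene table. They are 7 transporter genes (Slc7a5, Slc3a2, Slc1a5, Slc7a1, Slc7a6, Slc38a1 and Slc38a2) and the 2 branched-chain transaminase genes (Bcat1 and Bcat2). All 9 were found among the 46603 genes counted, and all 9 passed the filter on low counts that left 21183 genes to test. The data are bulk RNA-seq of 22 libraries from 8 mice, with cells sequenced naive or after culture on anti-CD3 with anti-CD28, antibodies that stand in for antigen and costimulation. The control group (wt; label genotype wtcre, line Tcaim KI Cd4Cre) and the knock-in group (KI; hocre, same line) each held 3 mice, sequenced naive, at 24 h and at 48 h. The knockout group (KO; hocre, line Tcaim KO Cd4Cre) held 2 mice, sequenced naive and at 48 h. By their names, both lines carry Cre driven by Cd4, so Cre is shared by the controls, and Cd4 is switched on in T cells during thymic development. The wt mice belong to the KI line, and no wt mice of the KO line were analysed here. The mice of experiments 1 and 3 in the KI and wt groups were male, those of experiment 5 were female, and both KO mice were female. Replicate numbers 1, 3 and 5 are the experiment numbers of the labels, and each mouse gave 1 library at each time. Ages were not given in the sources used here.

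T cells that leave the resting state import more amino acids to build protein and nucleotides and to keep the kinase complex mTORC1 active. The product of Slc7a5 (LAT1) exchanges large neutral amino acids such as leucine and reaches the cell surface as a pair with the heavy chain encoded by Slc3a2 (4F2hc, CD98). Once inside, leucine, isoleucine and valine can pass their amino group to 2-oxoglutarate through a transaminase, which is cytosolic when made from Bcat1 and mitochondrial when made from Bcat2.

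Total counts per library ran from 62551905 to 93489115, and the members had between 66 counts (Bcat1, naive) and 41491 counts (Slc7a5) in a library. Tcaim stood at 138 to 260 CPM (counts scaled to library size) in KI libraries and at 8.38 to 15.2 CPM in wt libraries. In the libraries labelled KO it was 14.9 and 19.6 CPM before and 11.7 and 5.99 CPM after 48 h, so the level of the gene as a whole did not set these libraries apart from wt, and whether the deleted part was counted was not given in the sources used here. All 7 genes listed as CD8 T cell markers (Cd8a, Cd8b1, Cd3d, Cd3e, Cd3g, Trac and Lck) were above 1 CPM in every group, with summed levels of 2931 to 6015 CPM. Markers of B and NK cells were highest in naive libraries: the 6 B cell markers summed to 160 to 1453 CPM naive and 37.8 to 282 CPM after stimulation, and the 4 NK cell markers to 17.9 to 126 CPM and 0.0596 to 2.06 CPM. Likewise the 11 myeloid and dendritic cell markers summed to 90.0 to 283 CPM naive and 13.7 to 48.2 CPM after stimulation. The 8 erythroid and platelet markers summed to 2.89 to 68.8 CPM and 0.290 to 1.89 CPM. The highest naive B cell sum, 1453 CPM, was that of KO replicate 1, against 160 CPM in KO replicate 5. The 4 CD4 T cell markers summed to 283 CPM naive and 211 CPM at 48 h in KO replicate 1, to 41.0 and 35.6 CPM in KO replicate 5, and to 32.3 to 89.8 CPM in the wt and KI libraries. On a principal component analysis of 10167 genes, KO 48 h replicate 1 lay at 63.1 on the second component, with 7.64% of the variance, and the next library, wt 48 h replicate 3, at 28.3. In a bulk sample fewer cells of a type and less RNA per cell cannot be told apart.

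Nearly all of the 9 genes differed between naive and stimulated wt cells. At 24 h against naive, 7 members rose (Slc7a5, Slc1a5, Slc7a1, Slc7a6, Slc38a1, Bcat1 and Bcat2), 1 fell (Slc38a2) and Slc3a2 was not called, by edgeR's quasi-likelihood test with Benjamini-Hochberg adjustment over all genes at 0.05. Of all genes tested, 48.3% were called in this comparison, 26.3% higher and 22% lower, so a call in itself is common here. The median log2 fold change of the members was 0.79, beside -0.05 for all genes. At 48 h against naive 8 members rose and Slc38a2 fell, where 56.3% of all genes were called (29.5% higher, 26.8% lower), and the median was 0.81 beside -0.04. With upper-quartile scaling, which lowered the median of all genes by 0.18 at 24 h and 0.22 at 48 h, the share of all calls that were higher went from 54.5% to 42.6% at 24 h and from 52.5% to 41.7% at 48 h. In KI, 5 members rose and 1 fell at 24 h (38.7% of all genes called, 22.9% higher and 15.8% lower), and 7 rose and 1 fell at 48 h (48.6% called, 26.6% higher and 22.1% lower). The naive libraries differ from the stimulated ones in the B cell, NK cell, myeloid, erythroid and platelet marker levels given above, and the part of those cells in these changes was not tested. No group was cultured without the antibodies, so stimulation and time in culture cannot be told apart here or below. The plot of CPM by library shows the 9 genes in all 8 groups.

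**Figure D1:**
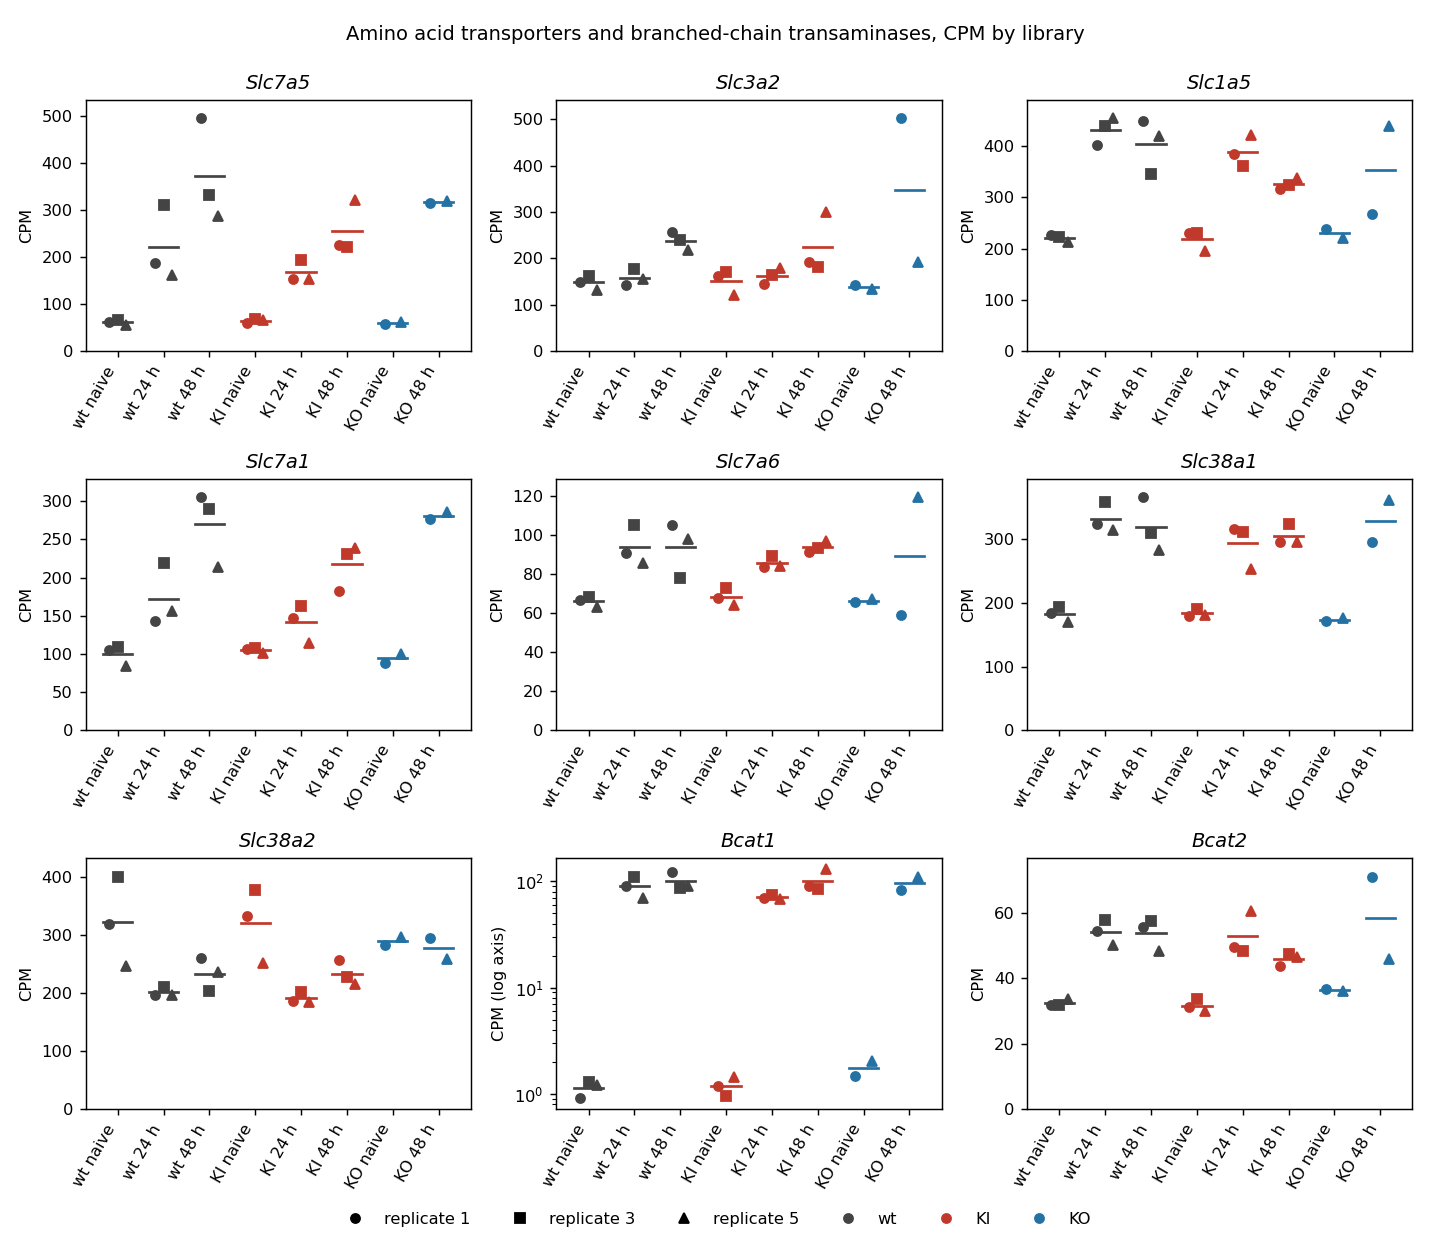
CPM of the 9 genes in each of 22 libraries (points, shape by replicate, colour by genotype) with the group mean (bar), on a linear axis from 0 except for Bcat1, which has a log axis. Slc7a5 lies between 55.2 and 67.7 CPM in all naive libraries and between 153 and 495 CPM in all stimulated ones, and Slc3a2 in KO 48 h replicate 1 stands at 502 CPM.

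Slc7a5 (chromosome 8, 121881150 to 121907694 on GRCm38) had 62.7, 67.0 and 55.2 CPM in wt naive replicates 1, 3 and 5, 188, 311 and 163 CPM at 24 h, and 495, 333 and 288 CPM at 48 h. No stimulated library overlapped a naive one, while the 24 h and 48 h ranges overlapped through replicate 3 at 24 h. The log2 fold change against naive was 1.84 (SE 0.22, adjusted p = 2.45e-06, edgeR) at 24 h and 2.59 (SE 0.23, adjusted p = 3.30e-08, edgeR) at 48 h, a 6.03-fold rise. It rose in 6 of 6 mice at 24 h and in 8 of 8 mice at 48 h, by 1.70 to 2.98 on the log2 scale at the later time. KI naive libraries had 59.0, 67.7 and 65.7 CPM, KI 24 h libraries 154, 194 and 153 CPM, and KI 48 h libraries 226, 220 and 321 CPM. The rise in KI was 1.38 (SE 0.22) at 24 h and 2.00 (SE 0.23) at 48 h on the log2 scale, and both were called. The KO pair went from 57.4 and 61.9 CPM to 315 and 319 CPM, which is 2.41 (SE 0.28) on the log2 scale.

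Its heavy chain gene Slc3a2 (chromosome 19, 8706882 to 8723369) followed later and by less. Wt libraries held 149, 162 and 132 CPM naive, 143, 177 and 154 CPM at 24 h, and 257, 239 and 217 CPM at 48 h. The 24 h libraries overlapped the naive ones and the 48 h libraries lay above both. The log2 fold change was 0.10 (SE 0.25, adjusted p = 0.764, edgeR) at 24 h and 0.68 (SE 0.25, adjusted p = 0.0262, edgeR) at 48 h. The 24 h value became -0.088 with upper-quartile scaling. The 48 h call was lost with that scaling and without any 1 of the 3 wt mice, with adjusted p up to 0.141 over the alternatives. In KI the 48 h libraries held 192, 181 and 300 CPM against 162, 170 and 120 CPM naive, a difference of 0.57 (SE 0.25, adjusted p = 0.0644) that was not called. In KO the 2 libraries at 48 h were far apart, 502 CPM in replicate 1 and 192 CPM in replicate 5, against 143 and 133 CPM naive. The KO change of 1.33 (SE 0.31, adjusted p = 0.00200) fell to 0.48 and was no longer called without KO 48 h replicate 1, the library that stands apart on the second component and has the higher CD4 T cell and B cell marker sums, whose part in this was not tested.

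Because both genes of the pair were read in the same library, their ratio in FPKM (fragments scaled to the gene's length and to the library) does not depend on library scaling. The Slc7a5 to Slc3a2 ratio was 0.332 ± 0.00256 (SD, n = 3) in wt naive cells, 1.10 ± 0.283 at 24 h and 1.23 ± 0.261 at 48 h. In KI it was 0.348 ± 0.0773, 0.828 ± 0.135 and 0.921 ± 0.0608. At 48 h the 3 KI libraries (0.854 to 0.972) lay below the 3 wt libraries (1.06 to 1.53), a log2 difference of -0.40 (SE 0.18). An exact permutation test (two-sided) gave p = 0.1, which 3 libraries a group cannot go below, and 0.6 after adjustment over the 6 ratio tests. KO libraries had ratios of 0.319 and 0.371 naive and of 0.50 and 1.33 at 48 h, the lower value at 48 h being that of replicate 1.

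**Figure D2:**
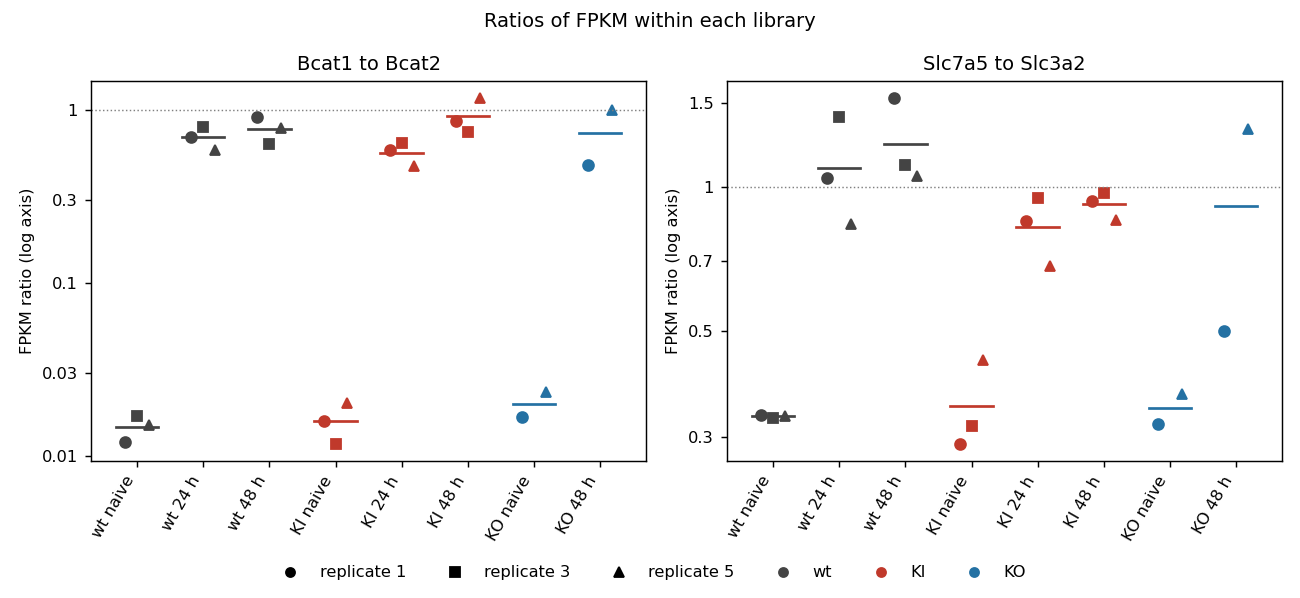
Ratio of FPKM within each library for Bcat1 to Bcat2 (left) and Slc7a5 to Slc3a2 (right), both on log axes, with points by replicate, colour by genotype, bars at group means and a dotted line at equal FPKM. The Bcat1 to Bcat2 ratio lies between 0.0118 and 0.0234 in naive libraries and between 0.474 and 1.17 in stimulated ones.

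Slc1a5 encodes ASCT2, a sodium-dependent exchanger of glutamine and other small neutral amino acids. It had 226, 222 and 213 CPM in wt naive libraries, 403, 440 and 454 CPM at 24 h, and 450, 346 and 420 CPM at 48 h. All stimulated wt libraries lay above all naive ones, and the 24 h and 48 h ranges overlapped. The log2 fold changes were 0.97 (SE 0.15, adjusted p = 2.37e-05) and 0.88 (SE 0.14, adjusted p = 4.93e-05, both edgeR). KI libraries held 230, 230 and 195 CPM naive, 385, 361 and 422 CPM at 24 h, and 316, 325 and 337 CPM at 48 h, and both KI changes were called, at 0.83 and 0.58. From 24 h to 48 h Slc1a5 was lower in 5 of the 6 KI and wt mice, with no call in either genotype (log2 change -0.25 in KI and -0.09 in wt). KO libraries held 239 and 221 CPM before and 268 and 439 CPM after 48 h, with the lower one from replicate 1, and the KO change of 0.62 lost its call when mouse 5 was left out (0.16).

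The 2 further members of the SLC7 family moved to different degrees. Slc7a1 encodes CAT1, a carrier of the cationic amino acids arginine and lysine. Its wt libraries had 105, 109 and 84.6 CPM naive, 143, 218 and 156 CPM at 24 h, and 305, 290 and 214 CPM at 48 h, so that each time step raised it in every wt mouse. The change against naive was 0.79 (SE 0.17, adjusted p = 0.00101) at 24 h and 1.44 (SE 0.18, adjusted p = 1.65e-06, edgeR) at 48 h. In KI it went from 100 to 108 CPM naive to 115 to 163 CPM at 24 h, with a difference of 0.43 (adjusted p = 0.0547, edgeR) that missed the threshold and was called with the replicate number as a block (0.42, adjusted p = 0.0348), and to 182 to 239 CPM at 48 h, with a called change of 1.05. KO libraries rose from 87.8 and 100 CPM to 276 and 286 CPM, a change of 1.58 (SE 0.22). Slc7a6, whose product (y+LAT2) exchanges cationic for neutral amino acids and also pairs with the Slc3a2 heavy chain, had a smaller change. It rose in wt from 63.3 to 68.6 CPM naive to 85.8 to 105 CPM at 24 h and 78.2 to 106 CPM at 48 h, by 0.50 (SE 0.17) at both times. These 2 calls were lost with upper-quartile scaling, and without wt replicate 1 or 5 at either time, and at 24 h also without wt replicate 3. In KI, Slc7a6 changed by 0.33 (SE 0.17, adjusted p = 0.145, edgeR) at 24 h, which was not called. At 48 h the KI change of 0.46 (SE 0.17, adjusted p = 0.0351, edgeR) was called. That call was lost under 6 of 15 alternatives, among them upper-quartile scaling, DESeq2 and leaving out any 1 KI mouse. In KO the Slc7a6 libraries parted, 59.1 CPM in replicate 1 and 119 CPM in replicate 5 at 48 h against 65.6 and 67.2 CPM naive. That change was not called (0.43, adjusted p = 0.109), and without KO 48 h replicate 1 it was 0.85 and called.

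The 2 SLC38 genes, both for sodium-coupled carriers of glutamine, alanine and other small neutral amino acids, went in opposite directions. Slc38a1 (SNAT1) rose in wt from 184, 193 and 170 CPM naive to 323, 358 and 314 CPM at 24 h, and was 366, 310 and 283 CPM at 48 h. Its log2 fold changes were 0.86 (SE 0.12, adjusted p = 8.58e-06) and 0.81 (SE 0.12, adjusted p = 1.24e-05, edgeR), and in KI 0.68 and 0.73, all called. The KO change of 0.92 was called too. Slc38a2 (SNAT2, the form best known for its induction when amino acids are scarce) was the one member that fell. Wt libraries had 319, 401 and 247 CPM naive, 197, 210 and 198 CPM at 24 h, and 261, 203 and 236 CPM at 48 h. The 24 h libraries lay below all naive ones, and the 48 h libraries overlapped them through replicate 1 at 48 h and replicate 5 naive. The log2 fold change was -0.68 (SE 0.16, adjusted p = 0.00191) at 24 h and -0.47 (SE 0.16, adjusted p = 0.0190, edgeR) at 48 h. The 48 h call was lost without wt replicate 3 (-0.19) and when only wt naive and wt 48 h libraries were fitted. KI repeated these sizes, at -0.74 and -0.46, the latter not called without KI replicate 1 or 3. In the KO libraries Slc38a2 was 284 and 298 CPM before and 296 and 259 CPM after 48 h, a difference of -0.07 (SE 0.20, adjusted p = 0.801). The difference between the KO and wt changes was 0.40 (SE 0.25) and not called (adjusted p = 1.00).

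Bcat1 had the largest change of the 9 genes. In naive wt libraries it stood at 0.915, 1.29 and 1.22 CPM, in 24 h libraries at 91.3, 111 and 70.2 CPM, and in 48 h libraries at 121, 87.4 and 91.2 CPM. No stimulated library came near a naive one, and the 24 h and 48 h libraries overlapped. The log2 fold change was 6.31 (SE 0.26, adjusted p = 1.25e-11) at 24 h, a 79.6-fold rise, and 6.46 (SE 0.26, adjusted p = 7.89e-12, edgeR) at 48 h. KI libraries held 1.19, 0.954 and 1.44 CPM naive, 69.3, 74.6 and 68.7 CPM at 24 h, and 90.7, 84.4 and 130 CPM at 48 h, with called changes of 5.89 and 6.41. KO libraries held 1.47 and 2.03 CPM before and 82.2 and 109 CPM after 48 h, with a called change of 5.78 (SE 0.31). Within mice the naive to 48 h change ran from 5.75 to 7.05, upwards in 8 of 8. Bcat2, the mitochondrial form, rose by less: wt libraries held 32, 31.8 and 33.8 CPM naive, 54.6, 57.9 and 50.2 CPM at 24 h, and 55.6, 57.6 and 48.3 CPM at 48 h. Its log2 fold changes were 0.74 (SE 0.14, adjusted p = 2.27e-04) and 0.73 (SE 0.14, adjusted p = 1.92e-04, edgeR), and in KI 0.74 and 0.54, both called. In KO Bcat2 was 36.7 and 36.3 CPM before and 71.1 and 45.8 CPM after 48 h, and the call of 0.68 was lost without KO 48 h replicate 1 (0.33). Exons of Bcat1 overlap those of Gm26666 and exons of Bcat2 those of 0610005C13Rik, both on the opposite strand, and as the strand setting of the counting was not given, reads of these pairs may not have been separated.

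On the scale per length, the cytosolic form went from a trace to near the level of the mitochondrial one. The FPKM ratio of Bcat1 to Bcat2 was 0.0147 ± 0.00253 (SD, n = 3) in wt naive cells, 0.695 ± 0.107 at 24 h and 0.779 ± 0.140 at 48 h. In KI it was 0.0160 ± 0.00417, 0.567 ± 0.0859 and 0.926 ± 0.217, and in KO 0.0167 and 0.0234 naive and 0.483 and 0.995 at 48 h. KI minus wt log2 differences were 0.10, -0.29 and 0.24 at the 3 times, with p of 0.8, 0.2 and 0.5 by the same exact permutation test (adjusted 0.96, 0.6 and 0.75 over 6 tests). The 100 bases directly upstream of the annotated start of both transaminase genes and of Slc38a2 are shown because Bcat1 had the largest rise, Bcat2 is its mitochondrial counterpart with a far smaller one, and Slc38a2 fell. They are read 5′ to 3′ on the strand of the gene from the RefSeq promoter table of GRCm38.p6 (Bcat1 chr6:145076185-145076284, minus strand; Bcat2 chr7:45570053-45570152, plus strand; Slc38a2 chr15:96699731-96699830, minus strand). Capitals mark a match of GGGCGG (a GC box) or CCAAT on either strand, and both matches here lie on the opposite strand and so read CCGCCC and ATTGG. These motifs were chosen after the values were seen.
Bcat1: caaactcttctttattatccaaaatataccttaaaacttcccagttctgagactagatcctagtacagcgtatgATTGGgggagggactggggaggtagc
Bcat2: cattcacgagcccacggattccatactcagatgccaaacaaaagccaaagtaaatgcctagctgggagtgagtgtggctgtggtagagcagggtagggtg
Slc38a2: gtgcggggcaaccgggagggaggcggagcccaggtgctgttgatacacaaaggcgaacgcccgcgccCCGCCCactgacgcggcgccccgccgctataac
The Bcat1 stretch holds 1 CCAAT match and 1 CG dinucleotide, the Bcat2 stretch none of these motifs and 2 CG dinucleotides, and the Slc38a2 stretch 1 GGGCGG match and 13 CG dinucleotides. Among 32851 promoters of the table, 24.7% hold GGGCGG and 18.9% hold CCAAT in the same 100 bases, TATAAA, which is in none of the 3 stretches, is in 5.56%, and the median number of CG dinucleotides is 3. In the wider windows from 250 bases before to 50 after the start, present for 6 of the 9 members, neither the E-box CACGTG, a site of Myc with Max (7.15% of all windows), nor TGATGNAAN, an element bound by ATF4 with C/EBP factors (3.95%), was found on either strand. Slc7a5, Slc1a5 and Slc38a1 had no window and were not searched. The Slc3a2 window has its start site at 8713897, inside the gene (8706882 to 8723369, minus strand) and away from its annotated start. A match or its absence describes the letters of these windows and not binding.

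Set side by side in FPKM, the order of the genes differed between naive and stimulated cells. In naive wt cells Slc38a2 was highest (82.9 ± 20.7 FPKM, SD, n = 3), followed by Slc1a5 (63.0 ± 2.28) and Slc3a2 (59.5 ± 6.58), and Slc7a5 was sixth with 19.8 ± 2.1 FPKM. At 48 h Slc7a5 was first (112 ± 33.3), then Slc1a5 (109 ± 15) and Slc3a2 (89.8 ± 7.75), and Slc38a2 followed with 56.4 ± 7.35 FPKM. The ranges of the 3 leading genes overlapped at each of these times, although within each library Slc38a2 ranked 1 in wt naive cells and Slc3a2 ranked 3 at 48 h. Bcat1 was last in every group, at 0.146 FPKM naive and 12 FPKM at 48 h in wt. Of the summed FPKM of the 6 transporter genes other than the heavy chain, Slc38a2 made up 36.8% in wt naive cells (32.5% to 41.5% over libraries), 15.3% at 24 h and 15.1% at 48 h. The share of Slc7a5 went from 8.89% (8.65% to 9.08%) to 20.4% and 29.6% (25.2% to 33.6%). In KI 48 h libraries Slc7a5 made up 24.6% (22% to 29.2%) and in KO 48 h libraries 24.7% and 29.4%, both overlapping wt. The sum itself was 223 ± 28.9 FPKM in wt naive, 321 ± 39.7 at 24 h and 375 ± 61.6 at 48 h, and 223 ± 23.7, 273 ± 10.1 and 308 ± 15.8 FPKM in KI. FPKM were made by the authors with 1 length per gene, so levels of different genes depend on that length.

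**Figure D3:**
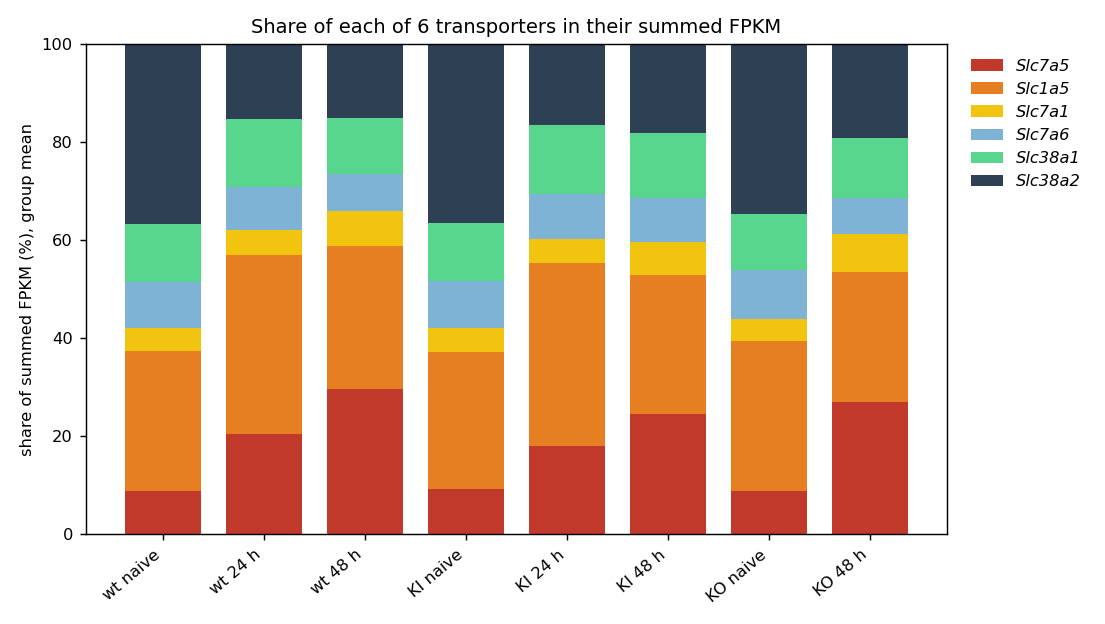
Group means of the share (%) that each of 6 transporter genes takes of their summed FPKM, stacked to 100% for the 8 groups. Slc38a2 takes 36.8% in wt naive and 15.1% in wt 48 h cells, and Slc7a5 8.89% and 29.6%.

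In wt, Slc1a5, Slc7a6, Slc38a1, Bcat1 and Bcat2 had changes of similar size at 24 h and at 48 h against naive. Slc3a2 did not, at 0.10 and 0.68. Between 24 h and 48 h in wt, 2 members rose, Slc7a5 by 0.75 (SE 0.22, adjusted p = 0.0424) and Slc7a1 by 0.65 (SE 0.17, adjusted p = 0.0283, edgeR), where 7.49% of all genes were called (4.08% higher, 3.41% lower). Slc7a5, Slc7a1 and Slc3a2 were each higher at 48 h than at 24 h in 6 of 6 KI and wt mice. Slc3a2 differed by 0.58 in wt (SE 0.25, adjusted p = 0.177, edgeR) and was not called. Neither the call of Slc7a5 nor that of Slc7a1 held in a fit of the 2 groups alone, without wt replicate 1 or 5, or without KI replicate 1 or 3. Without KI replicate 5 or the filter only that of Slc7a1 held. In KI no member was called between 24 h and 48 h by edgeR, where 2.68% of all genes were called. An unadjusted p under 0.05 was found there for 3 members by edgeR, beside 3288 of the 21183 genes tested. DESeq2 called 1 member, and 1256 of all genes. Slc7a1 differed by 0.62 there (adjusted p = 0.0636, edgeR), and with the replicate block it was called (0.63, adjusted p = 0.0283).

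KI and wt cells were compared at each time, which asks whether more Tcaim goes with a different response of these genes. No member was called by edgeR or by DESeq2 at any of the 3 times. In naive cells all 9 KI ranges overlapped wt, with log2 differences between -0.04 and 0.08, no unadjusted p under 0.05, and 0.113% of all genes called. At 24 h the differences ran from -0.40 (Slc7a5, SE 0.22) to 0.03 (Slc3a2), 8 of 9 were below 0, none had an unadjusted p under 0.05, and 0.00472% of all genes were called. At 48 h 4.17% of all genes were called (2.28% higher, 1.89% lower). An unadjusted p under 0.05 was found for 2 members, beside 3793 of the 21183 genes tested. Slc7a5 differed by -0.54 (SE 0.22, adjusted p = 0.190), with KI libraries at 226, 220 and 321 CPM and wt libraries at 495, 333 and 288 CPM. Slc1a5 differed by -0.31 (SE 0.14, adjusted p = 0.257), with KI libraries (316 to 337 CPM) below all wt libraries (346 to 450 CPM). Bcat2 differed by -0.23 (SE 0.14, adjusted p = 0.406), with KI libraries (43.8 to 47.3 CPM) below wt (48.3 to 57.6 CPM). Bcat1 differed by 0.02 (SE 0.20). The difference between KI and wt in its change from naive was -0.43 (SE 0.31) at 24 h and -0.05 (SE 0.31) at 48 h, neither called. The difference between KI and wt in the change from naive was called for no member at 24 h or at 48 h, with no unadjusted p under 0.05, no call by DESeq2, and 0% and 0.387% of all genes called. The largest such difference at 48 h was -0.60 (SE 0.31, adjusted p = 0.561) for Slc7a5.

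Within experiments, where KI and wt cells came from the same round, the differences at 48 h were not alike. KI was lower than wt in 9 of 9 members in experiment 1, in 6 in experiment 3 and in 4 in experiment 5, with median log2 differences of -0.42, -0.09 and 0.07. At 24 h it was lower in 7, 9 and 7 of 9, with medians of -0.08, -0.26 and -0.08, and in naive cells in 3, 4 and 3 of 9. Slc7a5 at 48 h was 226 against 495 CPM in experiment 1, 220 against 333 CPM in experiment 3 and 321 against 288 CPM in experiment 5, so the sign turned in the experiment with female mice. Slc1a5 and Bcat2 at 48 h were lower in KI in all 3 experiments, as were Slc7a5, Slc1a5, Slc7a6, Slc38a1, Slc38a2 and Bcat1 at 24 h. None of these differences was called. How many of all genes share a sign over the 3 experiments, or keep KI and wt libraries apart, was not counted. Members read in the same libraries are not separate observations. Each experiment holds 1 mouse of either genotype, so experiment, sex and mouse cannot be told apart. On the first principal component, which separates naive from stimulated cells with 75.7% of the variance, KI libraries lay lower than wt ones at 24 h (10.7 to 24.3 against 24.6 to 50.4) and at 48 h (35.0 to 47.0 against 51.2 to 63.4). Summed B cell markers at 48 h were 126 to 254 CPM in KI and 52.7 to 151 CPM in wt. The 5 stromal markers summed to 157 to 205 CPM in KI and 93.2 to 111 CPM in wt. Most of this sum was Pecam1, at 146 to 195 against 86.3 to 91.7 CPM. Epcam stood at 6.75 to 10.2 against 6.09 to 24.1 CPM, Col1a1 under 1 CPM, and Cdh5 and Col3a1 at or near 0. The sum therefore reads mainly Pecam1 and not stromal genes as a set. Pecam1 differed between KI and wt by 0.10 in naive cells, not called, and by 0.96 at 48 h (adjusted p = 8.75e-04, edgeR). From naive to 48 h it fell in wt (adjusted p = 7.93e-06, edgeR). In KI its log2 change of -0.14 was not called (adjusted p = 0.419, edgeR). The part of any of these in the KI and wt differences was not tested.

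**Figure D4:**
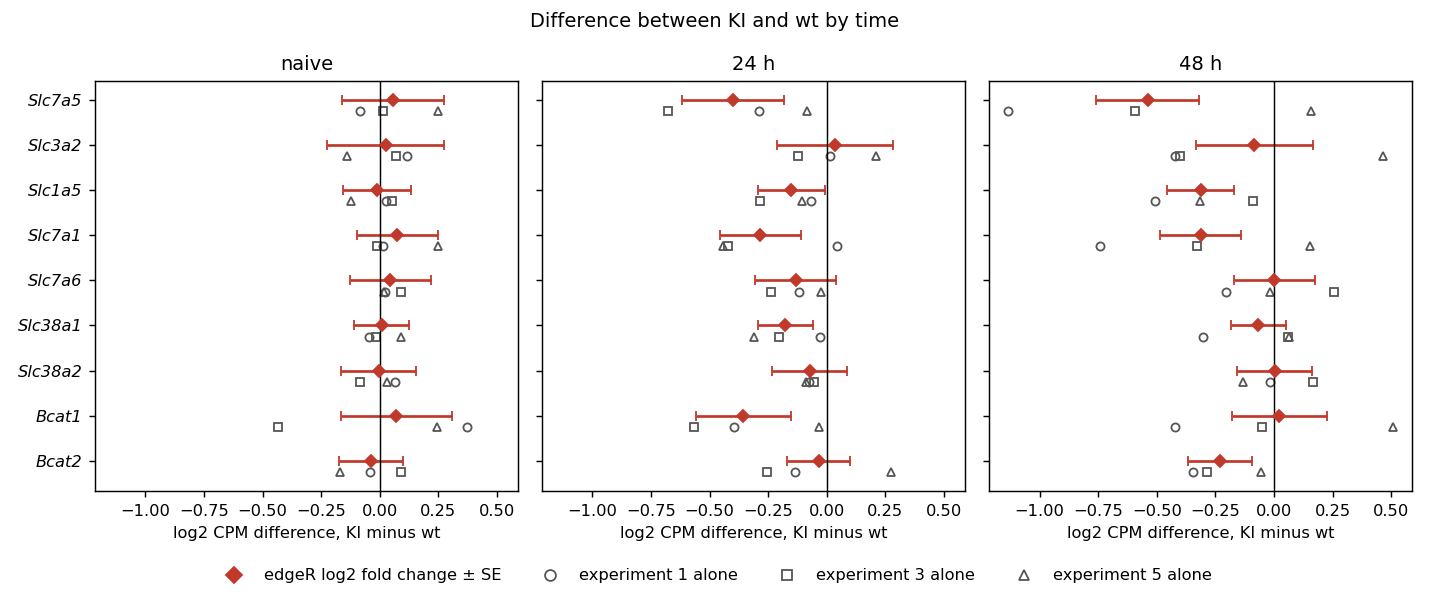
Log2 difference in CPM between KI and wt cells for the 9 genes, naive, at 24 h and at 48 h, as the edgeR log2 fold change with its SE (filled diamonds) and within each experiment (open symbols). At 48 h Slc7a5 lies at -0.54 with its experiments on both sides of 0, while all 3 experiments lie below 0 for Slc1a5 and Bcat2.

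In the libraries labelled KO, 7 members rose and none fell at 48 h against naive, beside 44.0% of all genes called (23.6% higher, 20.4% lower), and the 2 not called were Slc7a6 and Slc38a2. A fit of the 2 KO groups alone, with 2 libraries each, called 3 members, and the share of all genes called in that fit is not given here. Against wt, edgeR and DESeq2 called no member in naive cells, where 0.0236% of all genes were called. An unadjusted p under 0.05 was found for 277 of the 21183 genes tested and for 1 member. That member was Bcat1, with 1.47 and 2.03 CPM in KO and 0.915 to 1.29 CPM in wt, a difference of 0.61 (SE 0.25, adjusted p = 1.00). At 48 h no member was called by either tool, none had an unadjusted p under 0.05, and 0.0283% of all genes were called. The KO values at 48 h depend on which library is used: without KO mouse 5, and so with replicate 1 as the lone KO library, 3 members were called against wt, Slc3a2 higher (1.07) and Slc1a5 and Slc7a6 lower (-0.60 and -0.67), where the same fit called 21.5% of all genes. Without replicate 1 the Slc3a2 difference was -0.31. The difference between KO and wt in the change from naive was called for no member and for 0% of all genes, with no unadjusted p under 0.05 and no call by DESeq2.

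The genes with the most similar profiles over the 22 libraries were named for each member, as a description, since naive and stimulated libraries form 2 clusters that set most of the correlation. For Slc7a5 they were Ppp2r5d, a phosphatase subunit (Pearson r = 0.99 over 22 libraries, 0.94 over the 14 stimulated ones), Xpot, the tRNA exporter (0.99 and 0.92), and Phgdh, the first enzyme of serine synthesis (0.99 and 0.95). Those for Bcat1 were Chaf1a, Cenph and Cdc45, with roles in chromatin assembly, the kinetochore and DNA replication (0.99 each over 22 libraries, 0.77 to 0.78 over 14). For Slc1a5 they were Kyat3, Sdf2l1 and Klhdc4, and for Slc7a1 Foxk2, Ckap5 and Larp1 (0.97 each over 22 libraries). Slc7a6 was closest to Eif4g1, a scaffold of translation initiation (0.97 and 0.96), then Dnajc11 and Urb2, and Slc38a1 to Ints2, Gemin5 and Acaca (0.99 each over 22). Slc3a2 was closest to Nfe2l1 and Snhg5 (0.91 each), Slc38a2 to Sik1, 5430416N02Rik and Rbm3 (0.90 to 0.92), and Bcat2 to Idh3g, a subunit of a citric acid cycle enzyme (0.96), Capzb and Klc1. Among members, deviations of a library from its group mean had the highest correlation for Slc1a5 with Slc7a6 over 22 libraries (r = 0.86, and 0.61 over the 20 without KO 48 h) and for Slc7a1 with Slc38a1 over the 20 (0.80, and 0.74 over 22). Slc7a5 with Slc7a1 had 0.76 in both. Exons of Ppp2r5d, Kyat3, Klhdc4, Urb2, Ints2, 5430416N02Rik, Rbm3, Chaf1a, Cdc45 and Klc1 overlap those of a gene on the opposite strand, so their values are less certain. Libraries share depth and scaling in these values.

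Related genes were counted in 6 lists. Beside them, 26.3% of all genes tested were called higher and 22% lower in wt at 24 h, and 29.5% and 26.8% at 48 h. The lists share genes: Psat1, Asns, Gpt2, Pycr1 and Aldh18a1 are in both the ATF4 list and the glutamine and glutamate list. Sesn2 and Eif4ebp1 are in both the mTORC1 and the ATF4 list. Slc7a11 is in the lists of other transporters and ATF4, and Slc38a9 in those of other transporters and mTORC1. Counts of these lists are therefore not separate. The list of cytosolic aminoacyl-tRNA synthetases holds 20 genes for the enzymes that load amino acids onto tRNAs and 3 for auxiliary proteins of their complex (Aimp1, Aimp2 and Eef1e1), and all 23 rose in wt at 24 h and at 48 h, with a median log2 change of 1.43 at 48 h beside -0.04 for all genes. Kars rose by 1.71, Gars by 2.04 and Nars by 1.65. Of 20 glutamine and glutamate enzymes 16 rose and 1 fell at 48 h, with Psat1 at 3.77, Got1 at 2.34 and Gls2 at 3.78. Of 31 genes of the ATF4 and amino acid response 22 rose and 2 fell, with a median of 2.04. Psat1 and Phgdh of serine synthesis rose (3.77 and 2.43) and Ppp1r15a, a phosphatase subunit of the stress response, fell by 3.80. Atf4 itself fell by 0.52 at 24 h (adjusted p = 0.0375) and differed by 0.40 at 48 h with no call (adjusted p = 0.0938, edgeR), and the 24 h call was lost without any 1 of the wt mice and without KI replicate 1 or 3. Myc, a regulator of many transporter genes, rose by 0.64 and 1.03, and its 24 h call was lost without wt replicate 3 or 5.

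The other 3 lists were more mixed. With upper-quartile scaling, 5134 of all genes were called higher and 7181 lower in wt at 48 h, against 6258 and 5671 in the main fit. Of 41 genes of amino acid sensing and mTORC1, 17 rose and 6 fell at 48 h, and with upper-quartile scaling 8 rose and 13 fell. The genes with the smallest p were Tbc1d7 (3.17), a subunit of the TSC complex, Eif4ebp1 (3.43), a translation repressor that mTORC1 phosphorylates, and Seh1l (1.14), a subunit of the GATOR2 complex. Of 23 genes of branched-chain amino acid breakdown beyond the transaminases, 11 rose and 4 fell, beside 29.5% and 26.8% of all genes. With upper-quartile scaling 7 rose and 7 fell, beside the counts of all genes given above for that scaling. Dld rose by 1.25 and Hibadh by 1.00 in the main fit. Among 26 other amino acid transporter genes that passed the filter, of 35 in the list, 8 rose and 9 fell. Slc1a4 (ASCT1) rose by 4.13 and Slc43a1 (LAT3) by 2.43, while the lysosomal carrier Slc36a1 fell by 1.74. The median of this list was -0.16, against 0.81 for the 9 members.

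**Figure D5:**
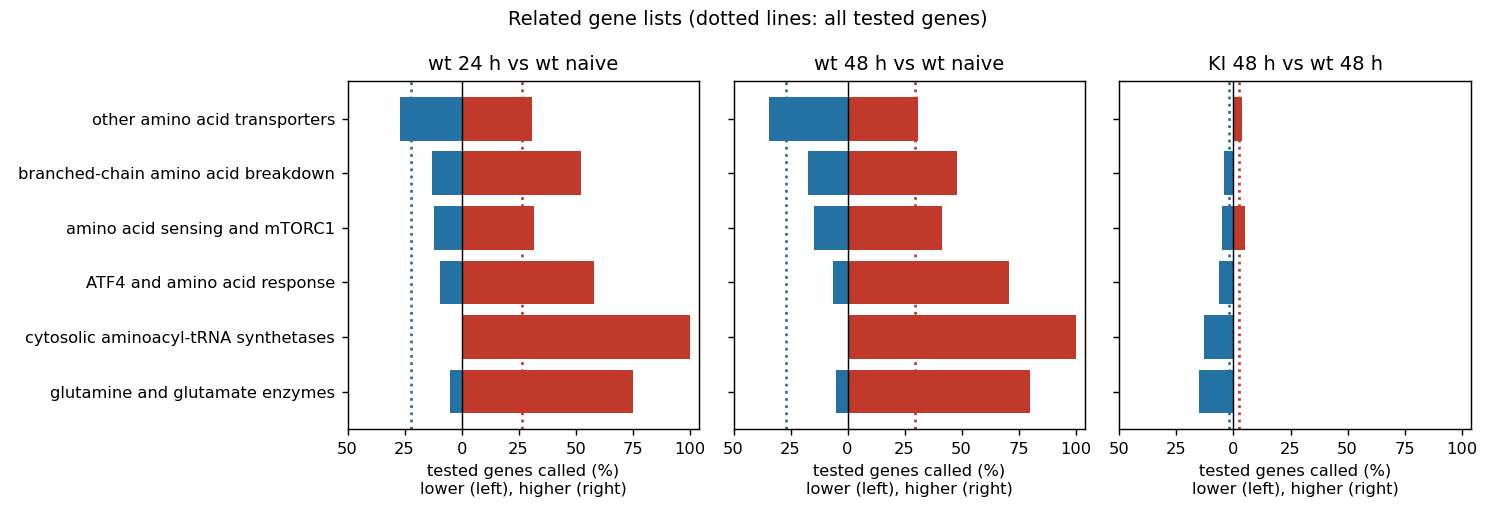
Share (%) of the tested genes of 6 lists called higher (right, red) or lower (left, blue) in wt at 24 h and 48 h against naive and in KI against wt at 48 h, with dotted lines at the shares of all tested genes. The aminoacyl-tRNA synthetase list reaches 100% higher in both wt comparisons, and few genes of any list are called between KI and wt.

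Between KI and wt at 48 h, 13 of the 155 different genes tested in these lists were called (8.39%), beside 4.17% of all genes. The largest difference was in Slc6a19 (B0AT1), a sodium-coupled carrier of neutral amino acids. It had 174, 164 and 138 CPM in KI naive, 112, 90.0 and 154 CPM in KI 24 h and 124, 76.8 and 80.2 CPM in KI 48 h libraries. Wt libraries held 142, 134 and 117 CPM naive, 57.4, 31.5 and 72.9 CPM at 24 h, and 20.3, 25.7 and 32.1 CPM at 48 h. KI lay above wt in every library at 24 h and at 48 h, the naive libraries overlapped, and the 48 h difference was 1.85 (SE 0.29, adjusted p = 0.00175, edgeR), called in 15 of 15 alternatives. The difference in its change from naive was 1.57 (SE 0.41) and not called (adjusted p = 0.115). Lower in KI were 3 aminoacyl-tRNA synthetases (Tars -0.60, Nars -0.51, Lars -0.58), 3 glutamine and glutamate enzymes (Got1 -0.60, Gss -0.53, Aldh18a1 -0.61), and in the ATF4 list Aldh18a1 again and Eif2ak4 (-0.57), the kinase that senses uncharged tRNA. Mccc1 of leucine breakdown was lower too (-0.53). In the mTORC1 list Tbc1d7 (-1.22) and Deptor (-1.45), an inhibitor of mTOR present at 0.791 CPM in KI, were lower, and Sesn1 (0.91), a stress-induced inhibitor of mTORC1, and Mlst8 (0.42), a subunit of the complex, were higher. Exons of Ppp1r15a, Gls2, Seh1l, Mccc1, Gss and Deptor overlap a gene on the opposite strand. Mlst8 is named because so few genes were called, after its value was seen. Apart from that of Slc6a19, each of these calls was lost under at least 4 of 15 alternatives, among them the fit of the 2 groups alone and those without KI replicate 1 or wt replicate 1.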

How the data were processed

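RNA of CD8+ T cells, obtained from spleen and lymph nodes by magnetic depletion, was sequenced as stranded mRNA libraries, per the labels' protocols. The authors deposited raw counts per gene. Per the submitters' processing notes the tools included TopHat2 2.1.0, Bowtie2 2.2.5, featureCounts and DESeq2 1.6.3, on GRCm38/mm10. The strand setting of the counting was not given in the sources used here. The authors also deposited log2 values: each count was scaled by a single factor for its library, 1 was added and log2 taken (largest relative deviation 3.642e-14 when recomputed). In the FPKM deposited by the authors the scaled counts are divided by a gene length that is the same in every library (largest relative deviation 1.605e-13).

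Counts were tested with edgeR 4.0.16 in R 4.3.3: TMM scaling, filterByExpr (minimum count 10, minimum total 15), 8 group means over 22 libraries (14 residual degrees of freedom), a robust quasi-likelihood fit, and Benjamini-Hochberg adjustment over 21183 genes. The robust setting was chosen after results without it had been seen. The main fit treated libraries of the same mouse as independent, and mouse was not modelled in any alternative. CPM use TMM library sizes. FPKM ratios were compared by exact permutation tests (scipy 1.17.1). DESeq2 1.42.0, upper-quartile scaling, no filter, only the compared groups, a replicate block and leaving out each mouse were the alternatives. Leaving out KO 48 h replicate 1 and a fit without the robust setting were added after seeing the data. The scripts were tested on simulated data.

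The 9 genes and all lists were chosen with earlier results of these data known. Named beside the members were Tcaim, Myc and Atf4, for each list the 3 genes with the smallest p in wt 48 h against naive and in KI against wt at 48 h, and for each member the 3 genes with the highest Pearson r among those with a mean of at least 10 CPM. Some genes that this rule selects are not reported here. Labels tie replicate numbers to experiment and mouse. Deviations from group means correlated with a median r of 0.16 between libraries of the same mouse (20 pairs), 0.062 between mice of the same experiment (51 pairs) and -0.033 between experiments (140 pairs).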

Additional observations from a re-analysis of the deposited data

How the results depend on the processing

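Over 15 alternatives, 116 of 2025 values of single members took the other sign. None of these was called, and the largest had a size of 0.35 on the log2 scale. Of the calls of single members, 42 were lost and 30 gained. The fit without the robust setting changed no member's call. The KI against wt comparison at 48 h called 0 members under all 15 alternatives, while the number of all genes called there was 884 and became 109 with only the compared groups fitted, 1714 with DESeq2, 1684 without KO 48 h replicate 1, 1005 with the replicate block and 91 without KI replicate 1. The cause of each change below was not tested. Counts of members called below are given without the share of all genes called in the same fit, and so are not set against it.

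With upper-quartile scaling, Slc3a2 was -0.088 in wt 24 h against wt naive, Slc3a2 was -0.065 in KI 24 h against KI naive and Slc38a1 was -0.011 in KI naive against wt naive. With upper-quartile scaling also, Slc7a6 was -0.026 in KO naive against wt naive. With no filter on low counts, 1 member was called in wt 48 h against wt 24 h. With only the compared groups fitted, 0 members were called and Slc7a6 was 0.0028 in wt 48 h against wt 24 h, 1 member was called in KI 48 h against KI 24 h and 3 members were called in KO 48 h against KO naive. With only the compared groups fitted also, Slc38a1 was -0.0082 in KI naive against wt naive, Slc7a6 was -0.0071 in KO naive against wt naive and Slc3a2 was -0.022 and Bcat2 was -0.028 in the difference between KI and wt in the change from naive to 24 h. With the replicate block, Slc7a6 was 0.0024 in wt 48 h against wt 24 h, 1 member was called in KI 48 h against KI 24 h and Slc7a6 was -0.0029 and Slc38a2 was -0.0040 in KI 48 h against wt 48 h. With the replicate block also, Slc7a5 was 0.013 and Slc7a1 was 0.0041 in KO naive against wt naive and Slc38a2 was -0.0023 in the difference between KI and wt in the change from naive to 48 h. With DESeq2, Slc7a6 was 0.011 and Bcat2 was 0.0012 in wt 48 h against wt 24 h, 1 member was called in KI 48 h against KI 24 h and Slc38a1 was -0.0027 in KI naive against wt naive. With DESeq2 also, Slc3a2 was -0.016 in KI 24 h against wt 24 h, Slc7a6 was -0.025, Slc38a2 was -0.024 and Bcat1 was -0.0028 in KI 48 h against wt 48 h and Slc7a6 was -0.0051 in KO naive against wt naive. With DESeq2 also, Slc3a2 was -0.029 and Bcat2 was -0.035 in the difference between KI and wt in the change from naive to 24 h and Slc38a2 was -0.0063 in the difference between KI and wt in the change from naive to 48 h. The replicate block changed no other count of members called by over 1.5 times.

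Leaving out each mouse gave these ranges of log2 differences. For wt 48 h against wt 24 h, the number of members called ran from 0 to 3, Slc1a5 ran from -0.22 to 0.022, Slc7a6 ran from -0.12 to 0.20 and Slc38a1 ran from -0.18 to 0.025. Again for wt 48 h against wt 24 h, Bcat1 ran from -0.017 to 0.40 and Bcat2 ran from -0.028 to 0.0096. For KI 24 h against KI naive, Slc3a2 ran from -0.073 to 0.24. For KI 48 h against KI 24 h, the number of members called ran from 0 to 1 and Slc38a1 ran from -0.034 to 0.13. For KO 48 h against KO naive, Slc7a6 ran from -0.15 to 0.85 and Slc38a2 ran from -0.20 to 0.057. For KI naive against wt naive, Slc7a5 ran from -0.017 to 0.12, Slc3a2 ran from -0.071 to 0.15, Slc1a5 ran from -0.051 to 0.046 and Slc7a1 ran from -0.030 to 0.14. Again for KI naive against wt naive, Slc7a6 ran from -0.0061 to 0.073, Slc38a1 ran from -0.039 to 0.050, Slc38a2 ran from -0.16 to 0.18 and Bcat1 ran from -0.11 to 0.21. For KI 24 h against wt 24 h, Slc3a2 ran from -0.037 to 0.12 and Bcat2 ran from -0.14 to 0.024. For KI 48 h against wt 48 h, Slc3a2 ran from -0.36 to 0.050, Slc7a6 ran from -0.11 to 0.092, Slc38a1 ran from -0.15 to 0.040 and Slc38a2 ran from -0.088 to 0.091. Again for KI 48 h against wt 48 h, Bcat1 ran from -0.20 to 0.19. For KO naive against wt naive, Slc7a5 ran from -0.12 to 0.015, Slc1a5 ran from -0.00038 to 0.12, Slc7a1 ran from -0.19 to 0.0063 and Slc7a6 ran from -0.031 to 0.026. Again for KO naive against wt naive, Slc38a2 ran from -0.31 to 0.039. For KO 48 h against wt 48 h, the number of members called ran from 0 to 3, Slc7a5 ran from -0.38 to 0.030, Slc3a2 ran from -0.31 to 1.07 and Slc1a5 ran from -0.60 to 0.12. Again for KO 48 h against wt 48 h, Slc7a1 ran from -0.082 to 0.16, Slc7a6 ran from -0.67 to 0.35, Slc38a1 ran from -0.12 to 0.18 and Bcat1 ran from -0.29 to 0.12. Again for KO 48 h against wt 48 h, Bcat2 ran from -0.23 to 0.40. For the difference between KI and wt in the change from naive to 24 h, Slc3a2 ran from -0.19 to 0.14, Slc38a2 ran from -0.23 to 0.078 and Bcat2 ran from -0.12 to 0.11. For the difference between KI and wt in the change from naive to 48 h, Slc3a2 ran from -0.51 to 0.12, Slc7a6 ran from -0.18 to 0.040, Slc38a1 ran from -0.14 to 0.025 and Slc38a2 ran from -0.27 to 0.17. Again for the difference between KI and wt in the change from naive to 48 h, Bcat1 ran from -0.23 to 0.26. For the difference between KO and wt in the change from naive to 48 h, Slc7a5 ran from -0.32 to 0.066, Slc3a2 ran from -0.21 to 1.12, Slc1a5 ran from -0.72 to 0.12 and Slc7a6 ran from -0.66 to 0.35. Again for the difference between KO and wt in the change from naive to 48 h, Slc38a1 ran from -0.027 to 0.25 and Bcat2 ran from -0.40 to 0.22. For naive KI against wt, log2 FPKM ratio Bcat1 to Bcat2 ran from -0.084 to 0.30 and log2 FPKM ratio Slc7a5 to Slc3a2 ran from -0.13 to 0.16. Where an arm was left with 1 library, it was assumed to vary like the other groups.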
